A study of Equus caballus with 18 samples.

Results

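The rank of every gene in the superficial gluteal muscle of horses given clenbuterol was followed from baseline to treatment, and the changes in 4 horses on an escalating dose were set against the changes in 5 horses on a low dose. All 18 arrays of the series entered this comparison, 8 from the escalating regimen and 10 from the low dose regimen, as 9 changes, 1 for each horse. A change is the treated array (day 14 or day 28) minus the array of the same horse before the first dose, after the values of each array had been replaced by their ranks. Ranks are written as percentiles, from 0 for the dimmest to 100 for the brightest of the 30559 probesets, and a change in rank is in percentile points. The horses were exercised Thoroughbreds, given as 2 to 6 years old for the whole study, and were sedated for the biopsies. Low dose horses (L1 to L5) received 0.8 μg/kg BID by mouth over 30 days and are represented here by day 14. Escalating dose horses (E1 to E4) received 0.8, then 1.6, then 2.4 μg/kg at the same frequency, 3 days of each, and then 3.2 μg/kg over 21 days, and are represented by day 28. Neither regimen had untreated horses, so each horse is compared with itself only. Dose, day and horses differ together between the regimens, so that their parts in a difference cannot be told apart. Of the probesets, 16789 named a single gene symbol. With 1 probeset for each gene, and with provisional symbols left out, 16054 genes were followed.

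Clenbuterol is a β-adrenergic agonist. In skeletal muscle β-adrenergic signalling raises cAMP, which activates protein kinase A, and the kinase acts on glycogen and lipid breakdown and, through CREB and its coactivators, on transcription. Given for long periods, β-agonists are known in several species for muscle growth, loss of fat and a move towards fast fibres, and the response is known to fade during long exposure.

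The arrays of the regimens did not lie on one scale. The median log2 value of an array was 2.42 to 2.74 in the low dose regimen and 4.06 to 4.5 in the escalating regimen, which ranks within an array do not carry. The standard deviation of an array's log2 values was 1.714 to 1.803 at the escalating baseline and 1.486 to 1.533 on day 28. It went from 1.667 to 1.692 at baseline to 1.728 to 1.746 on day 14 in L1 to L3, from 1.383 to 1.412 in L4 and from 1.306 to 1.198 in L5. The part of this spread in the called differences was not tested. Which arrays were normalized together is not given in the sources used here. Horses L4 and L5 stood apart within the low dose regimen. The rank correlation (Spearman) of a horse's own arrays was 0.906 to 0.918 in L1 to L3, 0.825 in L4, 0.727 in L5 and 0.777 to 0.8 in the escalating dose horses. The standard deviation of a horse's changes over all probesets was 11.7 to 12.5 points in L1 to L3, 17.1 in L4, 21.3 in L5 and 18.2 to 19.3 in E1 to E4. Its mean did not differ between the regimens beyond the spread of the horses (18.8 against 14.9 points, two-sided exact permutation test, p = 0.159, adjusted p = 0.175 over 3 such tests). Across the 30558 probesets, changes of E1 to E4 correlated with each other at 0.714 to 0.767, those of L1 to L3 at 0.228 to 0.283, and those of L4 or L5 with any low dose horse at -0.0033 to 0.0145. The contractile genes that mark muscle fibres (15 measured) had a mean percentile of 94.3 to 99.1 on every array, which goes with the label muscle. Other markers differed between arrays. The 14 skin epithelium markers had a mean percentile of 72.5 to 73.8 at the baseline of L1 to L3, 53.0 and 48.2 at the baseline of L4 and L5, 42.2 to 49.1 on day 14, and 38.9 to 46.7 in the escalating regimen at either time. The 64 measured ribosomal protein genes stood at 89.3 to 94.2 at the low dose baseline, at 93.4 to 94.8 on day 14 in L1 to L4 and at 78.4 in L5, and went from 91.9 to 92.4 at the escalating baseline to 80.5 to 82.8 on day 28. Results that rest on the low dose horses are given without L4 and L5 where that matters. In biopsies, fewer cells of a type and less RNA per cell cannot be told apart.

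**Figure D1:**
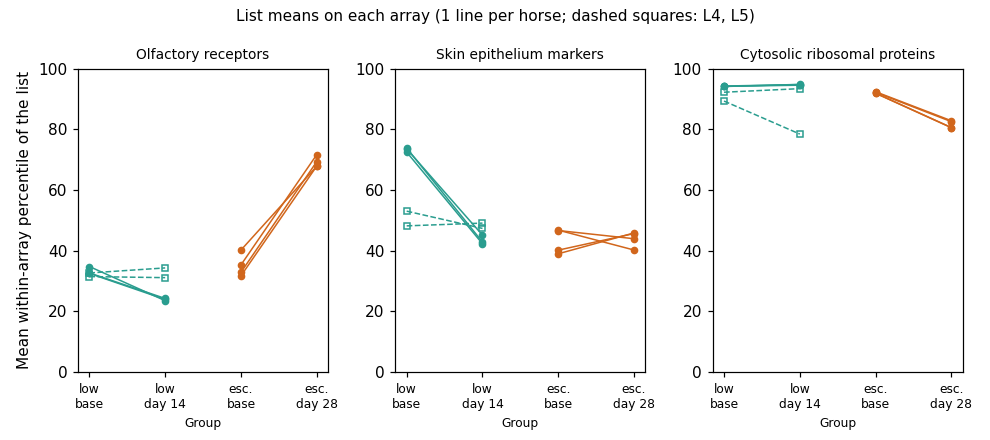
Mean within-array percentile (vertical axis, 0 to 100) of 3 gene lists on each array, with a line from baseline to treatment for each horse, low dose in green and escalating dose in orange. Olfactory receptors move up in all 4 escalating dose horses, skin markers are high only at the baseline of L1 to L3, and ribosomal proteins are low on day 28 and in L5 on day 14.

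The changes of the regimens differed in 28.6% of the genes, with dim genes mostly higher and bright genes mostly lower in the escalating dose horses. The difference is the mean escalating dose change minus the mean low dose change, and a gene is called higher or lower where limma gave it an adjusted p under 0.05 over all 30558 probesets tested. Of the 16054 genes, 4589 were called, 1641 higher (10.2%) and 2948 lower (18.4%). At an unadjusted p under 0.05 there were 6800 (42.4%). Over all probesets the difference was called in 7018 (23%), 3251 higher (10.6%) and 3767 lower (12.3%), the escalating dose change in 9125 (29.9%) and the low dose change in 9 (0.0295%). In the same fit the escalating dose change alone was called in 6047 genes (37.7%) and the low dose change alone in 1 gene (0.00623%), while 1716 genes (10.7%) had an unadjusted p under 0.05 at the low dose. The 4 escalating dose changes lay all above the 5 low dose changes in 1556 genes (9.69%) and all below them in 3179 genes (19.8%). Without L4 and L5, 5915 genes (36.8%) were called for the difference, and 105 (0.654%) for the low dose change. A rank is relative to the other probesets ranked, so the balance of directions depends on which probesets are ranked. With ranks over single-symbol probesets only, 2338 of these were called higher and 2578 lower (47.6% of calls higher). On ranks over all probesets, with p adjusted over single-symbol probesets, the counts were 1874 and 3274 (36.4% higher).

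The escalating dose change was the larger in 1596 of the genes called higher and in 2796 of those called lower. Among the 1641 genes called higher, the median change was -3.38 points in low dose horses against 30.8 in escalating dose horses, and the escalating change was also called in 1553 of them. Their median percentile was 30.3 at the low dose baseline, 26.2 on day 14, 34 at the escalating baseline and 69.8 on day 28. Among the 2948 genes called lower, the median change was 3.01 points against -19.8, and 2702 were also called at the escalating dose. Their median percentile went from 70.9 to 74.4 in the low dose horses and from 75 to 50.4 in the escalating dose horses. The mean changes of the regimens had opposite signs in 1203 of the genes called higher and in 2326 of those called lower. The called differences ranged from 9.54 to 95 points upward and from 8.99 to 77.3 points downward. When log2 values were quantile normalized in place of ranks, 1531 of the higher and 2512 of the lower genes were called in the same direction and 0 changed sign. After cyclic loess, 1512 and 1961 were, and 34 of the lower genes changed sign. Over all genes, quantile normalization called 10.6% higher and 20.9% lower, and cyclic loess 12.9% and 16%. Without L4 and L5, 1496 and 2661 of these genes were called in the same direction.

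**Figure D2:**
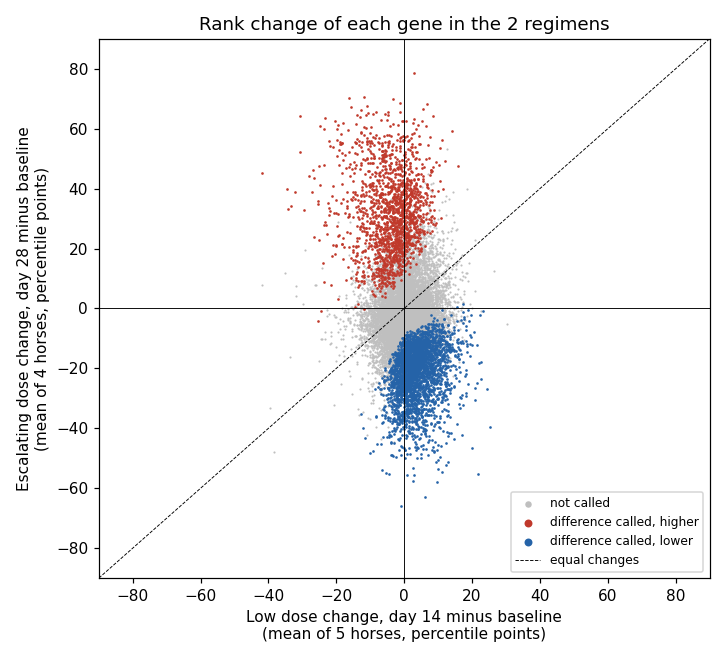
Mean change in rank of each of the 16054 genes at the low dose (horizontal axis, 5 horses) and at the escalating dose (vertical axis, 4 horses), both in percentile points, with genes called for the difference in red (1641 higher) and blue (2948 lower). The red and blue clouds stretch along the vertical axis and lie close to 0 on the horizontal one, and the dashed line marks equal changes.

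Brightness divided the directions. The genes were put in 10 bins of like size by mean rank, from bin 1, the dimmest, to bin 10, the brightest. In bin 1, 327 genes were called higher and 43 lower, and in bin 2, 440 were higher and 96 lower. The balance turned in the middle of the range, and in bins 9 and 10 the lower calls (500 and 237) far outnumbered the higher ones (34 and 9). The median difference was 4.45 points in bin 1 and -9.48 in bin 9. In bin 10 it was -3.46. Probesets with no symbol were called higher more often than lower (10.7% against 5.44%). These shares are set beside each gene list as background. The bins hold the genes of the lists too, olfactory receptors among them, so they are not a separate background.

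**Figure D3:**
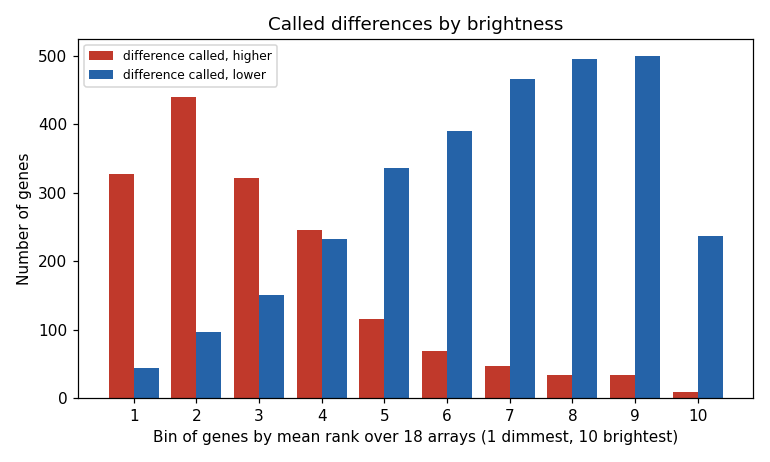
Number of genes called higher (red) and lower (blue) for the difference, in 10 bins of genes by mean percentile over the 18 arrays, from the dimmest (1) to the brightest (10). Higher calls fall from 327 and 440 in bins 1 and 2 to 9 in bin 10, and lower calls rise from 43 in bin 1 to 500 in bin 9.

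Olfactory receptors, the odorant receptors of the nasal epithelium and a large gene family, made up the largest block of genes called higher. Of 668 measured, 467 higher (69.9%, against 10.2% of all genes) and 0 lower were called. The median change was -4.59 points (low dose) and 36.3 points (escalating dose). In 411 of them all escalating dose changes lay above all low dose changes, which held for 9.69% of all genes. The median change of the family was -9.77 to -6.31 points in L1 to L3, -0.601 in L4 and 0.129 in L5, and 28.6 to 38.7 in the escalating dose horses, so the groups were far apart. Without L4 and L5, 513 were called higher and 2 lower. Their median percentile was 30.4 at the low dose baseline, 24.1 on day 14, 33.2 at the escalating baseline and 74.6 on day 28, which places them among the dim genes in 3 of the groups and above the middle on day 28 only.

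The 10 largest upward differences among called genes whose groups did not overlap were all olfactory receptors, led by OR5D18UP, OR4C16, OR4K6 and OR8U3 at 95.0, 87.4, 87.0 and 86.5 points. For OR5D18UP the changes in L1 to L5 were -47.6, -33.2, -41.4, -8.63 and -22.6 points, and those in E1 to E4 were 71.3, 59.1, 56.1 and 70.7. Every low dose horse was below its baseline and every escalating dose horse far above, with a gap wider than the range within either group. The difference was 95.0 points (standard error 7.90, adjusted p = 0.000255), and its percentile on day 28 was 83.1 ± 4.40 (SD, n = 4). OR8U3 showed that 1 low dose horse can part from the rest, with changes of -29.1, -29.5, -26.9, 24.5 and -20.0 points in L1 to L5 against 65.2 to 78.0 in the escalating dose horses. OR1O9 was the only gene called in both regimens and in opposite directions. It changed by -28.6, -42.0, -25.7, -48.2 and -27.9 points in L1 to L5 and by 35.0, 50.0, 31.9 and 42.5 in E1 to E4. Its low dose change of -34.5 had an adjusted p of 0.0334, its escalating dose change of 39.9 an adjusted p of 0.000269, and the difference was 74.3 points (standard error 5.99, adjusted p = 0.000238). Receptors of this family resemble one another in sequence, and how far the probes of one receptor take up RNA of another was not tested.

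Other chemoreceptors were also called higher. Of the 12 measured taste, trace amine and vomeronasal receptors, 8 were called higher (66.7%, against 10.2% of all genes) and 0 lower. Their median changes were -3.81 points (low dose) and 36.6 points (escalating dose). TAS2R9, TAS2R1 and TAS2R3, receptors for bitter substances, differed by 70.2 (adjusted p = 0.000433), 59.3 (adjusted p = 0.000254) and 46.8 (adjusted p = 0.000625) points. The β-defensins, antimicrobial peptides of epithelia, had 5 of 7 higher (71.4%) and 0 lower, among them DEFB126, a coat protein of sperm in primates, at 32.1 (adjusted p = 0.00187). Genes typical of tissues other than muscle (27 measured, among them hormones, milk and liver proteins) had 12 higher (44.4%) and 0 lower, with a median difference of 18.4 points. CSN3, the κ-casein of milk, changed by -12.4, -8.20, -12.9, -34.9 and -9.61 points in L1 to L5 and by 33.1, 48.0, 35.2 and 30.1 in E1 to E4. All low dose horses went down, L4 furthest, and all escalating dose horses went up, with a difference of 52.2 points (standard error 6.27, adjusted p = 0.000831). The fibrinogen β chain FGB and the β subunit of thyrotropin, TSHB, differed by 26.9 (adjusted p = 0.00148) and 61.5 (adjusted p = 0.000576). These families share a low rank at baseline, and higher calls were common among genes dim by mean rank over the 18 arrays. Those dim genes include members of these families and the olfactory receptors. In bins 2 and 3 by brightness 440 and 321 of 1605 genes each were called higher.

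The 10 largest downward differences, chosen in the same way, belonged to genes of unlike roles. They were UBE2F, which attaches the ubiquitin-like protein NEDD8, the glutathione transferase GSTA1, INSIG1, which holds the sterol sensor of cholesterol synthesis in the endoplasmic reticulum, ZNF146, a zinc finger protein, CHMP4B, a subunit of the ESCRT machinery that cuts membranes, AK4, the adenylate kinase of the mitochondrial matrix, SMIM8, FOXO6, a forkhead transcription factor, NSMCE1, a subunit of the SMC complex of DNA repair, and the calcium-binding PDCD6. Their differences ran from -77.3 points in UBE2F to -63.6 in PDCD6, and all had an adjusted p of 0.00443 or less. AK4 changed by -2.25, -1.93, -0.435, 4.92 and -4.38 points in L1 to L5 and by -69.1, -58.7, -72.3 and -64.2 in E1 to E4, so that it stayed in place in each low dose horse and dropped in each escalating dose horse. Its percentile was 92.7 ± 1.93 before and 26.7 ± 4.60 on day 28 (SD, n = 4), and the difference was -65.2 points (standard error 3.82, adjusted p = 0.000151). UBE2F and CHMP4B had high low dose values in L5. UBE2F changed by 8.85, 5.05, 0.216, 36.1 and 59.3 points in L1 to L5 and CHMP4B by 4.88, 3.02, 1.09, -6.33 and 52.4, against -65.6 to -45.9 and -60.7 to -43.8 in the escalating dose horses. Without L4 and L5 the differences were -60.1 (adjusted p = 0.000848) and -57.6 (adjusted p = 0.000655). For INSIG1 the changes were 6.80, 10.2, 9.44, -1.19 and 22.4 points in L1 to L5 and -73.5, -43.1, -51.3 and -64.5 in E1 to E4, with a difference of -67.6 points (standard error 6.90, adjusted p = 0.000433).

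**Figure D4:**
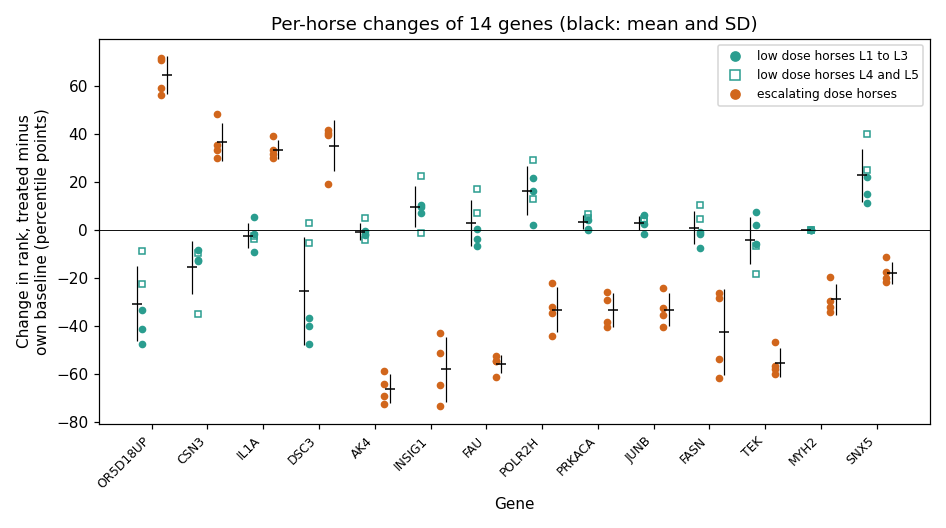
Change in rank (percentile points, treated minus own baseline) of 14 genes in each horse, low dose in green with L4 and L5 as open squares and escalating dose in orange, with the mean and SD of each group in black. OR5D18UP and the other genes called higher have all orange points above the green ones, and from AK4 to SNX5 all orange points lie below the green ones.

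Subunits of the RNA polymerases, splicing factors and mitochondrial ribosomal proteins had lower calls by rank above the 18.4% of all genes, and of these the splicing factors were near the share of all genes after cyclic loess. Among the 27 measured RNA polymerase subunits, 15 were lower and 1 higher, with median changes of 5.27 points (low dose) and -12.3 points (escalating dose). POLR2H, a subunit shared by the nuclear RNA polymerases, changed by 16.1, 1.96, 21.7, 12.8 and 29.2 points in L1 to L5 and by -34.6, -21.9, -44.4 and -31.9 in E1 to E4. All low dose horses were up and all escalating dose horses down, and the difference was -49.6 points (standard error 6.28, adjusted p = 0.00101). POLR2G, of RNA polymerase II, and POLR3K, of RNA polymerase III, differed by -26.4 (adjusted p = 0.00425) and -26.6 (adjusted p = 0.0043). Splicing factors and spliceosomal proteins (48 measured) had 0 higher and 16 lower, and 2 and 9 after cyclic loess (18.8% lower, against 16% of all genes). SF3B5, of the complex that recognises the branch point, and SRSF5, a serine and arginine rich splicing factor, differed by -43.5 (adjusted p = 0.000238) and -57.0 (adjusted p = 0.000757). Subunits of the mitochondrial ribosome (66 measured) had 0 higher and 29 lower, or 2 and 18 after cyclic loess (27.3% lower), and a median difference of -13.8 points against -4.47 for all genes. MRPL24, MRPL11 and MRPL14 differed by -41.1 (adjusted p = 0.0012), -33.0 (adjusted p = 0.000683) and -36.1 (adjusted p = 0.00086). The HOX genes, which set position along the body axis and are expressed in adult muscle, had 10 of 31 lower and 0 higher, among them HOXA7, at -56.5 (adjusted p = 0.000699).

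By rank the cytosolic ribosome and the translation factors were closer to the background, but on quantile-normalized values they were not. There the share lower was 50% for the cytosolic ribosome and 51.8% for translation factors, against 20.9% of all genes and 50% for the mitochondrial ribosome. After cyclic loess it was 20.3% for the cytosolic ribosome and 26.8% for translation factors, against 16% of all genes. Of 64 ribosomal protein genes 17 were lower by rank (26.6%, against 18.4% of all genes) and 0 higher, and 32 were lower on quantile-normalized log2 values. They stood at a median percentile of 96.6 at the escalating baseline, and in bin 10 by brightness 237 of 1606 genes were lower by rank. FAU, which encodes a ribosomal protein fused to a ubiquitin-like one, had the smallest p of them. Its changes were -6.78, -3.90, 0.286, 17.1 and 7.10 points in L1 to L5 and -54.7, -52.5, -54.6 and -61.2 in E1 to E4, with no horse of one regimen in the range of the other, and the difference was -58.5 points (standard error 5.19, adjusted p = 0.000304). RPLP1, of the stalk of the large subunit, and RPL22 differed by -34.8 (adjusted p = 0.000517) and -45.1 (adjusted p = 0.00078), and neither was called after cyclic loess. The family's median change was 0.00818 to 0.613 points in L1 to L4, -4.46 in L5 and -5.38 to -3.55 in E1 to E4, so L5 lay within the escalating dose range. Initiation and elongation factors (56 measured) had 1 higher and 15 lower by rank (26.8% lower) and 1 and 29 on quantile-normalized values. Among those lower were EIF2S2, the β subunit of the factor that brings the initiator tRNA, at -43.9 (adjusted p = 0.00107), and EIF4G1, the scaffold of the cap-binding complex, at -30.5 (adjusted p = 0.00323). Proteasome subunits (37 measured) had 0 higher and 9 lower by rank (24.3%), and 18 lower on quantile-normalized values (48.6%). Among them was PSMB7, a catalytic subunit, at -23.6 (adjusted p = 0.00326). Among 28 ubiquitin-conjugating enzymes 8 were lower (28.6%) and 1, UBE2U, was higher (50.5 points, adjusted p = 0.000381), and quantile normalization gave 19 lower (67.9%). UBE2M, like UBE2F an enzyme for NEDD8, differed by -53.3 (adjusted p = 0.000433).

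Subunits of oxidative phosphorylation stood near the top of every array and changed little in rank. Of 62 measured, 10 were lower (16.1%, below the 18.4% of all genes) and 0 higher, with a median difference of -1.06 points, whose sign turned when ranks were taken over single-symbol probesets only. On quantile-normalized log2 values 23 were lower (37.1%, against 20.9% of all genes) and the median difference was -0.84 (all genes -0.25). After cyclic loess 2 were higher and 7 lower (11.3%, against 16% of all genes). NDUFA6 and NDUFB4, accessory subunits of complex I, differed by -28.1 (adjusted p = 0.0013) and -22.3 (adjusted p = 0.00213) points. L5 again lay on the escalating side, with a median change of -4.78 points for the list against -0.22 to 0.208 in the other low dose horses and -2.7 to -2.31 in E1 to E4. PMPCA, which removes import signals from mitochondrial proteins, changed by -11.6 to 5.45 points in the low dose horses and by -33.5 to -25.4 in the escalating dose horses, a difference of -26.9 points (standard error 4.21, adjusted p = 0.00241) that was not called after cyclic loess (-0.74 on the log2 scale, adjusted p = 0.0603).

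The drug's own pathway was called lower in 6 of 23 measured genes of β-adrenergic and cAMP signalling (26.1%, against 18.4% of all genes) and higher in 0. These genes were bright, with a median percentile of 81.1 at the low dose baseline and 88.1 at the escalating baseline. In bins 9 and 10 by brightness 500 of 1605 and 237 of 1606 genes were lower. By rank the list's share lay within the range of genes of like brightness. On quantile-normalized values 11 were lower (47.8%, against 20.9% of all genes) and 1 higher. After cyclic loess 6 were lower (26.1%, against 16% of all genes) and 1 higher. For these scalings calls were not counted by brightness. The median change of the list was 0.269 points (low dose) and -6.44 points (escalating dose). PRKACA, the catalytic subunit of protein kinase A, changed by -0.262, 0.35, 4.05, 6.77 and 5.05 points in L1 to L5 and by -29.1, -26.0, -40.5 and -38.2 in E1 to E4. It moved little in the low dose horses and dropped in each escalating dose horse, from a percentile of 85.5 ± 1.91 to 52.0 ± 8.24 (SD, n = 4), and the difference was -36.7 points (standard error 4.00, adjusted p = 0.000569). CRTC2, a coactivator of CREB that protein kinase A releases into the nucleus, differed by -27.6 points (standard error 3.51, adjusted p = 0.00105). ARRB2, the β-arrestin that binds the phosphorylated receptor and ends its signalling, moved in opposite directions, by 13.4, 11.9, 14.2, 22.6 and 24.2 points in L1 to L5 and by -11.1, -13.1, -2.01 and -19.8 in E1 to E4. Its difference was -28.8 points (standard error 4.60, adjusted p = 0.00269), while its low dose change alone (17.2 points) had an adjusted p of 0.152.

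Immediate early genes, which are induced within minutes by stimuli such as exercise, had 6 of 16 lower (37.5%, against 18.4% of all genes) and 0 higher. Their median changes were 1.76 points (low dose) and -12 points (escalating dose). JUNB, a component of the AP-1 transcription factor, changed by -1.84, 2.44, 6.12, 3.61 and 4.35 points in L1 to L5 and by -40.3, -24.2, -32.7 and -35.4 in E1 to E4, with a difference of -36.1 points (standard error 3.93, adjusted p = 0.000565). The groups did not overlap, and the low dose values stayed within a few points of 0. The zinc finger factor KLF6 and the antiproliferative BTG2 differed by -34.5 (adjusted p = 0.00176) and -30.3 (adjusted p = 0.00461). Among 17 genes of the circadian clock 4 were lower (23.5%, near the 18.4% of all genes) and 0 higher. In bins 8 and 9 by brightness, where this list had its median, 496 and 500 of 1605 genes each were lower. NFIL3, a repressor of clock output, and PER1, a core repressor, were at -33.1 (adjusted p = 0.00454) and -27.8 (adjusted p = 0.0027). The call of PER1 was lost after cyclic loess. Biopsies of the study were taken at a set time of day after feeding, on days without exercise.

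Growth and breakdown pathways of muscle both had more lower than higher calls, as did all genes (18.4% lower and 10.2% higher). The shares lower were 33.3% for growth and 35% for breakdown genes. Both lists were bright, and in bins 8 and 9 by brightness 496 and 500 of 1605 genes each were lower. After cyclic loess the shares were 38.1% and 20%, against 16% of all genes. Of 21 genes of insulin, IGF and mTOR signalling, 7 were lower and 0 higher, at median changes of 0.203 points (low dose) and -11.2 points (escalating dose). The insulin-like growth factor IGF2, which acts in muscle formation, and RPTOR, the scaffold that defines mTOR complex 1, differed by -22.3 points (standard error 4.51, adjusted p = 0.00783) and -20.9 points (standard error 4.28, adjusted p = 0.00814), of which IGF2 was not called after cyclic loess. The atrophy list, which holds ubiquitin ligases, proteases and FOXO factors (20 measured), had 7 lower and 1 higher at median changes of -0.874 points (low dose) and -8.55 points (escalating dose). FOXO4, a forkhead activator of atrophy genes, and CAPN2, a calcium-dependent protease, were lower, at -44.8 (adjusted p = 0.000683) and -36.6 (adjusted p = 0.000535), and the lysosomal protease CTSL was the member called higher, at 22.2 (adjusted p = 0.00783). MUSK, the receptor kinase that organises the neuromuscular junction, was higher (25.0 points, adjusted p = 0.0406), but its groups overlapped, at -13.6, 11.3, 3.45, 2.27 and 21.7 in L1 to L5 and 28.5, 17.9, 29.6 and 44.0 in E1 to E4, and the call was lost when any one of L1, L2, L3, L4, E1, E3 or E4 was left out.

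Genes of lipid synthesis ranked lower in the escalating dose horses relative to the low dose horses. Of 19 genes of fatty acid and triglyceride synthesis, 9 (47.4%) were lower against 18.4% of all genes and 0 higher, with a median difference of -18.8 points. After cyclic loess 5 were lower and 1 higher. The list's median change was -0.902 to 1.68 points in the low dose horses and -23.9 to -13.5 in the escalating dose horses, with E1 and E4 at -23 and -23.9 and E2 and E3 at -13.5 and -13.9. FASN, the fatty acid synthase, changed by -7.61, -1.94, -0.977, 10.4 and 4.55 points in L1 to L5 and by -61.9, -28.2, -26.5 and -53.6 in E1 to E4, so E1 and E4 again went further down than E2 and E3. The difference was -43.4 points (standard error 7.91, adjusted p = 0.00482), and it was not called after cyclic loess. ACACB, the acetyl-CoA carboxylase of the mitochondrial surface, and ELOVL5, which lengthens polyunsaturated fatty acids, differed by -37.8 (adjusted p = 0.000462) and -47.9 (adjusted p = 0.00328). SCD, the desaturase that makes oleate, changed by -3.83, -1.48, -1.67, 12.8 and -7.14 points in L1 to L5 and by -32.1, -11.3, -13.9 and -23.9 in E1 to E4, without overlap, and its difference of -20.1 points (standard error 5.63, adjusted p = 0.0312) was not called on quantile-normalized values (adjusted p = 0.095), after cyclic loess, or when any one of L1, L2, L3, E1 or E4 was left out. At the same baselines the 8 measured adipocyte markers stood at mean percentiles of 81.0 and 83.9 in E1 and E4, 59.0 and 62.3 in E2 and E3 and 63.9 to 69.6 in the low dose horses, and on day 28 at 57.2 to 59.5. The part of these markers in the lipid differences was not tested. Lipid uptake and storage genes (14 measured) had 0 higher and 2 lower calls, of which FABP4, the fatty acid binding protein of fat cells and capillaries, was at -15.3 (adjusted p = 0.0229) and was not called without E1, E3 or E4 or after cyclic loess. LPL, the lipase that frees fatty acids from circulating triglycerides, differed by -2.53 points (standard error 3.84, adjusted p = 0.691) and was not called. Fatty acid oxidation (19 measured) had 0 higher and 4 lower, with PPARD, a nuclear receptor that drives fat oxidation in muscle, at -30.5 (adjusted p = 0.019). PPARD was not called without E1.

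Contractile genes stood at the top of the range of the arrays, where a rank has little room to rise. The 11 fast fibre genes had a median percentile of 99.5 at the escalating baseline and 99.1 on day 28, and the 12 slow fibre genes 97.5 and 98.4. Calls were 0 higher and 1 lower in the fast list (9.09% lower), and 0 higher and 2 lower in the slow list (16.7%, near the 18.4% of all genes). On quantile-normalized values there were 0 higher and 2 lower in the fast list, and 2 and 2 in the slow list. After cyclic loess these were 0 and 1, and 4 and 1. On quantile-normalized log2 values the median difference was -0.2 for fast and 0.6 for slow fibre genes, and after cyclic loess 0.26 and 1.06, so that the sign of the fast list depended on the scaling. That of the slow list was -0.137 in percentile points.

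MYH2, which encodes a myosin heavy chain of fast oxidative fibres, was the gene called in the fast list. Its change was 0.0442, -0.0524, -0.128, -0.159 and -0.121 points in L1 to L5 and -34.3, -32.3, -29.6 and -19.6 in E1 to E4, which is almost no movement in the low dose horses and a drop from a percentile of 99.1 ± 0.784 to 70.1 ± 6.83 (SD, n = 4) in the escalating dose horses. The difference was -28.9 points (standard error 3.64, adjusted p = 0.000986), and -4.65 on quantile-normalized log2 values (standard error 0.459, adjusted p = 6.73e-05). MYH7, the myosin heavy chain of slow fibres, changed by -0.371, -0.427, -0.209, -0.018 and -0.101 points in L1 to L5 and 0.486, 1.06, -0.0834 and 0.656 in E1 to E4. Its difference by rank was 0.756 points (standard error 2.67, adjusted p = 0.877), but on quantile-normalized log2 values it was higher by 1.03 (standard error 0.296, adjusted p = 0.0259). The other myosins named in the study lay on both sides. MYH11, of smooth muscle, was lower, at -35.0 points (standard error 7.86, adjusted p = 0.0124). MYH9 and MYH10, the non-muscle myosins, differed by -15.9 (adjusted p = 0.0445) and -15.0 (adjusted p = 0.108), and MYH9 lost its call under most alternatives, cyclic loess and the absence of L4 and L5 among them. MYH8, of developing muscle, and MYH15 differed by 0.395 (adjusted p = 0.98) and 12.0 (adjusted p = 0.131), and the myosin light chain kinase MYLK by -11.9 (adjusted p = 0.166). MYL6B, a light chain of slow muscle, and the muscle LIM protein CSRP3 were lower, at -31.8 (adjusted p = 0.00281) and -49.5 (adjusted p = 0.0017), and CSRP3 was not called after cyclic loess. Of 25 genes of glycolysis and glycogen, the 2 called were lower, hexokinase HK2 at -27.0 (adjusted p = 0.0248) and PHKG1, the catalytic subunit of muscle phosphorylase kinase, at -18.5 (adjusted p = 0.00613). Neither was called after cyclic loess, nor was HK2 on deposited or quantile-normalized values, with unequal variances, without L4 and L5 together, or without any one of L2, L3, E1 or E3.

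Markers of the other cells that a biopsy holds were counted in the same way. Among all genes 18.4% were lower and 10.2% higher, and in bins 8 and 9 by brightness 496 and 500 of 1605 genes each were lower. The shares lower were 40% for endothelial, 30.8% for smooth muscle and 33.3% for Schwann cell markers, and 23.3% for collagen and matrix genes. Endothelial markers had 6 of 15 lower and 0 higher, and their mean percentile was 78.3 to 83.2 at the escalating baseline, 64.5 to 67.0 on day 28, 73.3 to 80.8 at the low dose baseline, 74.1 to 82.3 on day 14 in L1 to L4 and 63.4 in L5. TEK, the angiopoietin receptor of the vessel wall, changed by 7.45, 2.02, -5.92, -6.79 and -18.4 points in L1 to L5 and -59.8, -46.5, -56.6 and -58.1 in E1 to E4. No low dose horse reached the escalating dose range, L5 came closest, and the difference was -50.9 points (standard error 5.57, adjusted p = 0.000569). CDH5, the cadherin of endothelial junctions, differed by -17.0 (adjusted p = 0.00425). Smooth muscle markers had 0 higher and 4 lower of 13, among them TAGLN, an actin-binding protein, at -46.5 (adjusted p = 0.00263), and Schwann cell markers 0 higher and 3 lower of 9. PMP22, a myelin protein, was at -13.2 (adjusted p = 0.0316), lost after cyclic loess and when any one of L1, L3 or E1 to E4 was left out. Collagen and matrix genes (30 measured) had 2 higher and 7 lower. The fibrillar collagens COL1A1, COL1A2 and COL3A1 differed by -18.4 (adjusted p = 0.0888), 3.13 (adjusted p = 0.627) and -1.76 (adjusted p = 0.868) and were not called, and COL1A2 changed sign on log2 values as deposited or median-centred. The matrix metalloproteinases MMP13 and MMP14 went opposite ways, at 29.7 (adjusted p = 0.00633) and -27.4 (adjusted p = 0.00377). Leukocyte markers had 3 higher and 2 lower of 16, the macrophage mannose receptor MRC1 at 28.4 (adjusted p = 0.00378) and the integrin ITGAM at -17.6 (adjusted p = 0.0105), and red cell markers 0 higher and 0 lower of 5.

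Interleukins, cytokines and their receptors were called higher in 8 of 22 genes and lower in 0, against 10.2% of all genes higher. IL1A, an inflammatory cytokine of epithelia and leukocytes, changed by 5.13, -1.79, -9.24, -2.76 and -3.67 points in L1 to L5 and by 38.9, 29.8, 31.4 and 33.2 in E1 to E4. The difference was 35.8 points (standard error 3.80, adjusted p = 0.000509), and its percentile rose from 52.3 ± 4.04 to 85.6 ± 5.19 (SD, n = 4) at the escalating dose. IL31RA, a cytokine receptor of skin and nerve, CXCL8, which attracts neutrophils, and IL6, which working muscle also releases, differed by 39.6 (adjusted p = 0.0041), 29.6 (adjusted p = 0.00195) and 28.0 (adjusted p = 0.017), and IL6 was not called without E2. Their baseline ranks were low, at a median percentile of 34.4 for the list at the escalating baseline. Among all genes, higher calls were most common in genes dim by mean rank over all arrays, day 28 included.

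For the skin epithelium list as a whole the larger median movement was on the low dose side, in L1 to L3. Of 14, 4 were called higher (28.6%, against 10.2% of all genes) and 0 lower, with median changes of -21.9 points (low dose) and 2.07 points (escalating dose). The median change was -33.5 to -27.7 points in L1 to L3, -5.66 in L4, 2.31 in L5 and -7.33 to 7.09 in the escalating dose horses. Without L4 and L5, 9 were called higher. The desmocollins DSC3 and DSC2 and the epithelial adhesion molecule EPCAM were among those called. Unlike the list median, each of these moved further at the escalating dose. Their mean changes there were 35.0, 28.6 and 15.3 points, against -25.4, -10.2 and -12.2 at the low dose. DSC3 changed by -47.4, -36.6, -40.2, -5.46 and 2.69 points in L1 to L5 and by 39.3, 41.5, 40.2 and 19.0 in E1 to E4, down in the 3 horses with high skin markers at baseline and up in all escalating dose horses, for a difference of 60.4 points (standard error 11.0, adjusted p = 0.00485). DSC2 and EPCAM differed by 38.8 (adjusted p = 0.00298) and 27.5 (adjusted p = 0.00815), with changes of 16.4 to 42.8 and 7.58 to 21.3 points in the escalating dose horses and -19.9 to 0.723 and -20.4 to 4.11 in the low dose horses. The part of skin in the baseline biopsies of L1 to L3 was not tested.

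In 197 called genes the low dose change was the larger, 152 of them upward and 45 downward at the low dose. Among those with a low dose change above 0, SNX5, a sorting nexin of endosomes, changed by 22.1, 14.9, 11.3, 40.0 and 24.9 points in L1 to L5 and by -11.4, -21.9, -17.6 and -20.2 in E1 to E4. Every low dose horse was up and every escalating dose horse down, and the difference was -40.4 points (standard error 5.84, adjusted p = 0.00171), with an adjusted p of 0.138 for the low dose change alone. RPL34, a protein of the large ribosomal subunit, did the same, by 16.1 to 34.0 and -23.4 to -7.17 points, for a difference of -40.2 points (standard error 5.02, adjusted p = 0.000952). NDUFAF7, an assembly factor of complex I, changed by 4.48 to 37.1 and -9.88 to 12.2 points, with a difference of -24.0 points (standard error 7.53, adjusted p = 0.0475) that most alternatives did not call. SARNP, a protein of RNA export, and RHOG2 differed by -24.6 (adjusted p = 0.00696) and -33.6 (adjusted p = 0.00688). Among those with a low dose change below 0, AKR1C1, an aldo-keto reductase, changed by -22.2, -12.7, -15.5, -8.32 and -66.7 points in L1 to L5, where L5 was furthest down, and by 18.4, 22.4, 19.3 and 31.9 in E1 to E4. Its difference was 48.1 points (standard error 11.1, adjusted p = 0.0136), and 39.8 (adjusted p = 0.00149) without L4 and L5. The olfactory receptors OR5P93 and OR1B1 differed by 67.6 (adjusted p = 0.00273) and 50.3 (adjusted p = 0.00489).

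**Figure D5:**
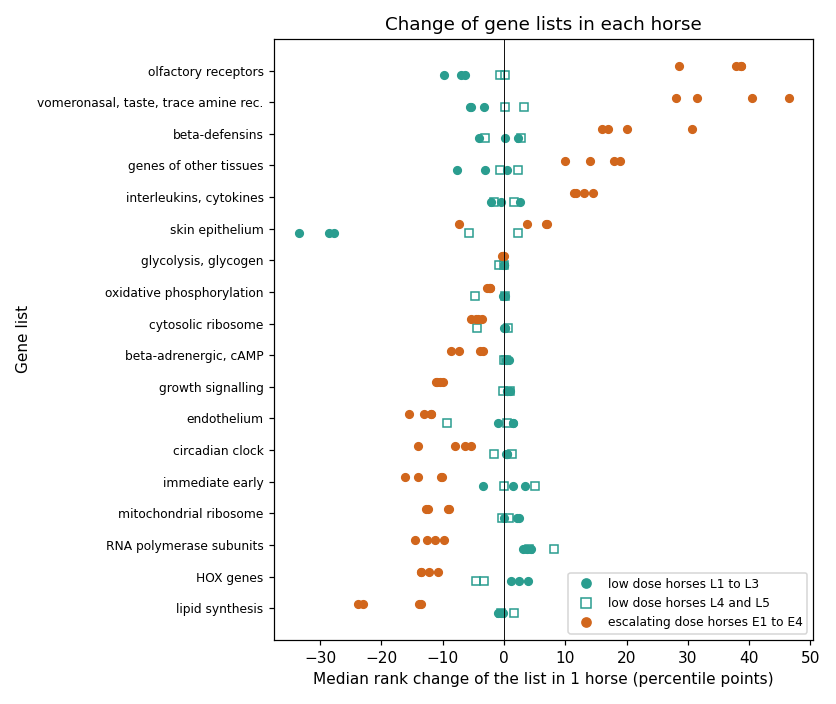
Median change in rank (percentile points) of the genes of 18 lists in each horse, with L1 to L3 as filled and L4 and L5 as open green symbols and the escalating dose horses in orange. Olfactory and other chemoreceptors lie far to the right in the escalating dose horses, skin markers far to the left in L1 to L3 only, and the lists from RNA polymerase subunits to lipid synthesis lie to the left in the escalating dose horses.

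Of 12 genes often used as references for PCR, 2 were lower by rank (16.7%, near the 18.4% of all genes). On quantile-normalized values 7 were lower (58.3%, against 20.9% of all genes). HPRT1, a purine salvage enzyme, changed by 37.6, 19.4, -9.15, 8.66 and -5.06 points in L1 to L5 and by -17.0, -45.2, -45.5 and -50.5 in E1 to E4, a wide spread in both groups without overlap, and its difference was -49.9 points (standard error 10.5, adjusted p = 0.0094).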

How the data were processed

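The 18 arrays (EquGene-1.0-st) carry muscle RNA of 9 horses. According to the methods and the deposited record, the authors computed log2 values with RMA in Affymetrix Expression Console (no version given) and filtered genes in Transcriptome Analysis Console 3.0. The deposited log2 values of 30559 probesets, with 1 value missing, were replaced by percentiles, 100 × (rank - 0.5) / number of probesets, with tied values sharing a rank (values have 2 decimals, so an array holds 804 to 994 different ones). Each horse's treated percentile minus its own baseline, 9 changes over 30558 probesets, was fitted in R 4.3.3 with limma 3.58.1, with 1 mean for each regimen and moderated variances. Tests are two-sided, with Benjamini-Hochberg adjustment over all probesets, and called at an adjusted p under 0.05. Same-numbered horses of the regimens are different animals, so pairing is within a horse only, through its change.

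Symbols came from the platform annotation (16789 probesets with 1 symbol, 343 with several, 13427 with none), and the probeset of highest mean rank stands for a gene. Named genes were the 10 largest differences in each direction among called genes whose groups do not overlap, genes the study names, up to 3 genes with the smallest p in each of 46 lists, genes called in opposite directions in the regimens, and the 5 largest low dose changes in each direction among called genes with the larger change at the low dose. From these the text describes 116. The members, lists and alternatives were chosen with earlier results of these data known, and lists are described by counts and medians without a test. Alternatives were other scalings (log2 values as deposited, centred on the array median, after quantile normalization or after cyclic loess, and normal scores of the ranks), ranks over single-symbol probesets, the brighter genes only, other variance models, no pairing by horse, and leaving out horses. On simulated data the fit missed most changed probesets, except where many were changed by the larger of the simulated amounts. Its share of false calls lay somewhat above the nominal level in some settings. Arrays give no counts, so the number of horses limits the precision. The record does not state one number of horses for the study, and the groups used here follow the sample labels. PCR and plasma data were not analysed here.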

Additional observations from a re-analysis of the deposited data

Results flagged for a closer look

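Genes whose change differed between the regimens by a test of the difference itself numbered 1641 higher and 2948 lower, as described above. Within a regimen, 46 of 378 sets of 4 or 5 values held 1 horse far from the rest by Dixon's test, where chance alone marks about 5% of sets. L5 was that horse in 23 of them, L4 in 5 and E4 in 5.

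On day 14 L5 stood apart in median list changes. In percentile points, with the range of the other low dose horses, these were -4.46 for ribosomal proteins (0.00818 to 0.613), -4.78 for oxidative phosphorylation (-0.22 to 0.208), -7.27 for the citric acid cycle (-0.0466 to 0.435), -5.56 for translation factors (0.3 to 1.41), -4.97 for the proteasome (0.636 to 2.71) and -4.41 for splicing factors (0.982 to 2.89). Further down-moving lists in L5 were chaperones at -11.8, antioxidant genes at -7.27, endothelium at -9.25, fatty acid oxidation at -4.76, smooth muscle at -2.29 and glycolysis at -0.885, while adipocyte markers stood at 10.6, RNA polymerase subunits at 8.18 and slow fibre genes at 2.32. The mean percentile of the muscle fibre genes was 95.8 at its baseline and 96.5 on day 14 (98.7 or more in the other low dose arrays), and that of the ribosomal proteins on day 14 was 78.4 (93.4 to 94.8 in the others). Single genes of L5 were AKR1C1 at -66.7, CHMP4B at 52.4, MYH8 at 28.7, ZNF25 at 29.1 and RPL22 at -21.4 points.

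Among the other low dose horses, L4 stood apart in lipid synthesis (1.68 points), CSN3 (-34.9), MRPL14 (21.8), OR8U3 (24.5) and SCD (12.8), L3 in MRPL11 (-4.62), TAS2R3 (-24.3) and TLR10 (13.3), and L1 in BTG2 (-6.45). Among the escalating dose horses, the median change of olfactory receptors was 28.6 points in E3 (37.9 to 38.7 in the others), of leukocyte markers 9.24 in E3 (-3.96 to -1.95), of actin cytoskeleton genes -10 in E1 (-4.85 to -3.91) and of zinc finger genes -5.07 in E4 (-6.64 to -6.39). Single genes were HPRT1 at -17.0 and RHOG2 at 3.61 in E1, NFIL3 at -38.1, MYLK at -22.7 and OR4C16 at 66.8 in E2, FOXO6 at -43.0 in E3, and DSC3 at 19.0, MRPL14 at -33.4, MYH15 at 27.1 and PMPCA at -33.4 in E4. Without L4 and L5 the differences of CHMP4B, CSN3 and OR8U3 were -57.6 (adjusted p = 0.000655), 47.8 (adjusted p = 0.00107) and 98.7 (adjusted p = 0.000364) by limma.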

How the results depend on the processing

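Of 30558 probesets, 7018 were called for the difference, 23%, 3251 higher and 3767 lower. On log2 values as deposited 11179 were called (53.8% of them higher) and after median centring 11770 (32.6% higher), against 46.3% higher by rank. Cyclic loess gave 8142 calls with 57.4% higher, and the brighter probesets alone 25.6% higher. Leaving out 1 horse gave 5015 to 8502 calls. For the escalating dose change, 9125 were called, 5953 among the brighter probesets alone and 6390 to 10823 with 1 horse left out. The low dose change had 9 calls (3530 at an unadjusted p under 0.05), 5 on values as deposited, 4 after quantile normalization, 0 with ranks or adjustment over single-symbol probesets, 5 with a trended prior, 2 with a variance for each regimen, 0 in a fit of that regimen alone (2188 at an unadjusted p under 0.05), 1 to 37 with 1 horse left out (25 without L4, 37 without L5) and 303 without L4 and L5 together. Without the pairing of a horse's own arrays (no replicate block) the counts were 5462, 12 and 7523 for the difference, the low dose and the escalating dose. With ranks over single-symbol probesets the median difference turned sign in 8 of 46 lists. They were the fast fibre, slow fibre, lipid uptake, citric acid cycle, oxidative phosphorylation, antioxidant, glycolysis and study-named genes. The cause of these shifts was not tested. Among the genes named in the text, signs turned in COL1A2, COL3A1, LPL and MYH8, none of them called by rank. The values were COL1A2 (-0.168 log2 as deposited, -0.538 centred), and with ranks over single-symbol probesets COL3A1 (3.28 points), LPL (1.49) and MYH8 (-3.04). With 1 horse left out COL3A1 lay at -7.26 to 1.81 and MYH8 at -3.63 to 5.26 points. With 5 and 4 horses, dim genes vary most, at a median standard error of 6.66 points in bin 2 by brightness and 3.73 in bin 10.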

Other observations

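Further families were counted in the same way. Zinc finger genes of the ZNF series (233 measured) had 10 higher and 40 lower (4.29% and 17.2%, against 10.2% and 18.4% of all genes), with ZNF24, ZNF25 and ZNF639 at -57.3, -31.0 and -47.6 points by limma (adjusted p = 0.000198, 0.000971 and 0.000783). RAB GTPases, which direct vesicle traffic (58 measured), had 1 higher and 16 lower (27.6% lower), with RAB35 of the recycling pathway at -34.7 (adjusted p = 0.000433) and RAB5C of early endosomes at -29.9 (adjusted p = 0.000479). Voltage-gated ion channels (44 measured) had 6 higher and 3 lower (13.6% and 6.82%). The potassium channel KCNH8 and the neuronal sodium channel SCN2A were at 52.2 (adjusted p = 0.00143) and 32.0 (adjusted p = 0.00355). Keratins and keratin-associated proteins (51 measured) had 6 higher (11.8%, near the 10.2% of all genes) and 1 lower (1.96%). Among those higher were the hair proteins KRTAP26-1 and KRTAP24-1 at 50.9 (adjusted p = 0.000411) and 40.2 (adjusted p = 0.00746).

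Toll-like receptors (10 measured) had 2 higher (20%, against 10.2% of all genes) and 0 lower, with TLR10 at 31.1 (adjusted p = 0.00296). Their median percentile at the escalating dose went from 36.8 to 56. Chaperones (20 measured) had 0 higher and 5 lower (25%, against 18.4% of all genes), with the chaperonin subunit CCT5 at -28.0 (adjusted p = 0.00659). Actin cytoskeleton genes (24 measured) had 0 higher and 5 lower (20.8%), with the actin-severing CFL1 at -21.3 (adjusted p = 0.00606). Antioxidant genes (18 measured) had 0 higher and 2 lower (11.1%), with GCLC of glutathione synthesis at -22.8 (adjusted p = 0.0117). The citric acid cycle list (18 measured) had 0 higher and 2 lower calls (11.1%), with pyruvate carboxylase PC at -34.6 (adjusted p = 0.00234). The regeneration list (14 measured) had 1 higher and 2 lower (7.14% and 14.3%), and the adipocyte list (8 measured) 0 higher and 1 lower (12.5%). The 21 measured genes named in the study had 6 higher and 6 lower (28.6% each).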
